A study of Homo sapiens with 9 samples.

Results

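The interferon-stimulated genes and viral RNA sensors described here are 35 named genes, taken by gene symbol from expression arrays of R-HepG2, an insulin-resistant form of the human hepatoma line HepG2. Of the 35 genes, 33 had a probe set assigned to 1 gene, and 25 of these were bright enough to be tested, out of 12240 tested genes in all. Messenger RNA was measured on 9 one-colour arrays, 3 for each of 3 groups. All cells spent a night without serum and then 4 h in biomineralized insulin (written BI below), in insulin, or in plain medium, with the same insulin dose of 40 ug/ml in both insulin groups. BI is insulin combined with a mineral component, and no group received that component alone, so mineral and insulin in BI cannot be told apart. The cell line tag reads HepG2 for the BI and insulin arrays and R-HepG2 for the medium arrays, whereas the culture and treatment protocols name R-HepG2 throughout. If the cells did differ in this way, that difference and the treatment cannot be told apart in the comparisons with medium. No source used here states whether the replicates were separate cultures, so the p-values measure the spread between these arrays, which may be technical.

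Cells sense viral RNA in the cytosol with RIG-I (gene RIGI) and MDA5 (gene IFIH1), which signal through the mitochondrial adaptor MAVS to the kinase TBK1 and the transcription factors IRF3 and IRF7, and these switch on type I interferon genes. Secreted interferon binds its receptor, activates the kinases JAK1 and TYK2, and brings a complex containing IRF9 to a DNA element called the interferon-stimulated response element (ISRE). Interferon gamma instead acts mainly through the gamma-activated site (GAS), which drives IRF1 among others. The induced genes block viral entry, degrade or sequester foreign RNA, and restrain translation, and many also have a low level without any infection.

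The 300-base promoter windows of 6 members are shown because these genes had the largest differences in BI among the members with a window, 5 lower and 1 higher. Each runs from 250 bases before to 50 bases after the transcription start in RefSeq, on build GRCh38.p14, and is written on the gene's own strand. Capitals mark matches to the ISRE core, TTTC followed by any 2 bases and TTTC again (read on the other strand as GAAA, any 2 bases and GAAA), or to the GAS, TTC followed by any 3 bases and GAA, which reads the same on both strands. Matches of 1 motif may overlap, as they do at the upstream pair in IFIH1. The windows of IFIH1 (chr2:162318635-162318934, minus strand), IRF1 (chr5:132490724-132491023, minus strand), IFIT5 (chr10:89414318-89414617, plus strand), ISG20 (chr15:88638766-88639065, plus strand), IFI35 (chr17:43006534-43006833, plus strand) and SAMD9 (chr7:93117930-93118229, minus strand) read as follows.
IFIH1: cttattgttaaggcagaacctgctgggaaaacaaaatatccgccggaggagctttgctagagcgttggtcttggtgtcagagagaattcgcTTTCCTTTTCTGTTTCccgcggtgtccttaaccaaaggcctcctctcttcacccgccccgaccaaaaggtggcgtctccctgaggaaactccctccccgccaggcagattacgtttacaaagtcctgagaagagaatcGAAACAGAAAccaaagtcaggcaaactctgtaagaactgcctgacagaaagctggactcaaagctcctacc
IRF1: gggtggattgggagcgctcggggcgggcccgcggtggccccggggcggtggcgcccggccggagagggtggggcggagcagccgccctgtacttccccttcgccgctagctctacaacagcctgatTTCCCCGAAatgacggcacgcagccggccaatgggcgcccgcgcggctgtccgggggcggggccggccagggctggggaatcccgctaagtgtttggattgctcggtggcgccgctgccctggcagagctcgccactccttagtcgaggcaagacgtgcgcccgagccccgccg
IFIT5: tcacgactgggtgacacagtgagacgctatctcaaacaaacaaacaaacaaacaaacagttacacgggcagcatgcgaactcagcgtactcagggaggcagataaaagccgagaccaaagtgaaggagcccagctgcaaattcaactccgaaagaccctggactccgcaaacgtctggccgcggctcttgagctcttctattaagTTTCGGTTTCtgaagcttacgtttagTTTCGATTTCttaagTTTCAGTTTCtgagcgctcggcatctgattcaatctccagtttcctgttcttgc
ISG20: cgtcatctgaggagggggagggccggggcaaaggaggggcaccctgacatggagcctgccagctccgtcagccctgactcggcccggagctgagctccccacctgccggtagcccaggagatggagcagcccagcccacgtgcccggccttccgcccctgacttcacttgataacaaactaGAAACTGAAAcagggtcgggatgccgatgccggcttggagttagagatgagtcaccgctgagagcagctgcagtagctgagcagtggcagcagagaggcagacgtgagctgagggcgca
IFI35: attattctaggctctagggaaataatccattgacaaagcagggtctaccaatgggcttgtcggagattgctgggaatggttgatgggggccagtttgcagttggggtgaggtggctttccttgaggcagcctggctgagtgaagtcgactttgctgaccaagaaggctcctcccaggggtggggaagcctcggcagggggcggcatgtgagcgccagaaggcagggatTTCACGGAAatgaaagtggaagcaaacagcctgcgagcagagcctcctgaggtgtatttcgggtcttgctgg
SAMD9: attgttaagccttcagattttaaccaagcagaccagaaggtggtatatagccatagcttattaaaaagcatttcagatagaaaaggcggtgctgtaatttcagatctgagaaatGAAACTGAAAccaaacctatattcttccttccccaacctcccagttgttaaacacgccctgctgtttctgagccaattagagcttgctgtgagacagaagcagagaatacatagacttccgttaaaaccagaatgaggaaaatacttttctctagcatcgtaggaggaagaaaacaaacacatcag

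IFIH1 and IFIT5 each held 3 ISRE matches, ISG20 and SAMD9 held 1 each, and IRF1 and IFI35 held 1 GAS match and no ISRE match. The single IRF1 match began at base -124 relative to the start, and the last IFIT5 match at base -4. Windows were given for 27 of the 35 genes (36 windows, with several for 7 genes). DHX58, IFIT2, IFITM2, IRF7, MX2, OAS2, OASL and USP18 had no entry. An ISRE core was present in 20 of the 27 genes (74.1%), against 4.38% of 27305 genes and 3.57% of 35116 windows of the same length. A GAS was present in 9 of the 27 (33.3%), against 9.38% of genes and 7.66% of windows. By their call in BI against medium, described below, the ISRE core was found in 4 of 6 genes called lower, 3 of 4 called higher, 8 of 10 tested and not called, and 5 of 6 below the brightness filter. A GAS was found in 2 of 6, 3 of 4, 3 of 10 and 1 of 6 genes of the same groups. These are matches of letters and no measure of binding.

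The values analysed are log2 expression values per probe set, so a difference of 1 is a doubling, and levels of different genes are not compared because each probe set has its own brightness. Array medians lay between 5.46 and 5.50, and arrays of different groups correlated at 0.992 to 0.998 across probe sets, against 0.998 within groups. The dimmest 40 percent of probe sets, with a mean below 4.74 over the 9 arrays, were left out. A gene is called higher or lower when its Benjamini-Hochberg adjusted p in limma, over all 12240 genes, is under 0.05. The labelled cell type was not borne out by its markers: of 9 hepatocyte markers analysed, 5 lay below the filter, among them albumin (mean 3.40), alpha-fetoprotein (2.93) and apolipoprotein B (2.78), and the brightest, APOA1, averaged 5.87. Among markers of other cells, 4 of 5 lung, 3 of 5 leukocyte, 3 of 3 endothelial and 3 of 4 fibroblast genes lay above the filter, with PTPRC and CD14 of the leukocyte list below it. The means of these 4 lists ran from 3.28 to 6.46, 2.76 to 7.35, 5.00 to 5.53 and 4.17 to 6.89. The array medians lie within each of these ranges, so a place above the filter is not by itself a high level. NKX2-1 of the lung list was higher in BI on the deposited scale, with means of 6.73 on BI, 6.36 on insulin and 6.14 on medium arrays (adjusted p = 4.8e-06 against medium and 0.00061 against insulin). SFTPB, SFTPC and NAPSA of the same list differed by 0.14, 0.12 and 0.09 in BI against medium and were not called. PDGFRB of the fibroblast list was lower in BI, by -0.42 log2 against medium (adjusted p = 0.00017) and -0.22 against insulin (adjusted p = 0.028), and COL1A1 differed by -0.20 against medium (adjusted p = 0.050 as rounded, called lower). COL3A1 of that list differed by 0.03 in BI against medium and was not called. The part of these genes in the results was not tested. The cells are therefore called by their label without a further cell type name. The poly-A spike-in controls, bacterial RNAs added to the sample before labelling, averaged 7.62 on BI arrays (7.50 to 7.80), 7.23 on insulin arrays (7.21 to 7.25) and 7.22 on medium arrays (7.16 to 7.29). Their part in the differences was not tested, and in these bulk samples fewer expressing cells and less RNA per cell cannot be told apart. Centring the arrays on these controls, which was tried only once their levels were known, lowers the median of all genes by 0.40 log2 in BI against medium and by 0.39 in BI against insulin, so differences involving BI are relative to the array as a whole.

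In BI against medium, the interferon genes divided into a few that fell clearly, fewer that rose slightly, and many that were not called. IFIT2, ISG20, IRF1 and IFI35 were each lower in BI by at least 1.5-fold, IFIH1 was lower by at least 1.24-fold with its BI level under the brightness filter, IFIT5, PARP9 and OASL were lower by less, and SAMD9, IFITM1, OAS1 and BST2 were higher by less than 1.5-fold, of which BST2 was called lower with spike-in centring (-0.24, adjusted p = 0.020) and IFITM1, OAS1 and SAMD9 were not called. Of the 25 tested members 12 were called (48%), 8 lower and 4 higher, against 50.9% of all tested genes (25.2% lower and 25.7% higher), so the number of calls is near the background. By size as measured, 5 of the 25 were lower by at least 1.5-fold (4 without IFIH1, which is known only as a bound), against 4.35% of all genes, and 0 were higher by that much, against 2.76% (7.11% in either direction). The members' median difference was -0.09 log2, against 0.02 for all genes. With spike-in centring the split was 0 higher and 22 lower, against 273 higher and 9120 lower among all genes. The groups did not overlap for 11 members, against 56.6% of all genes, and 14 members had an unadjusted p under 0.05, against 56.4%.

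**Figure D1:**
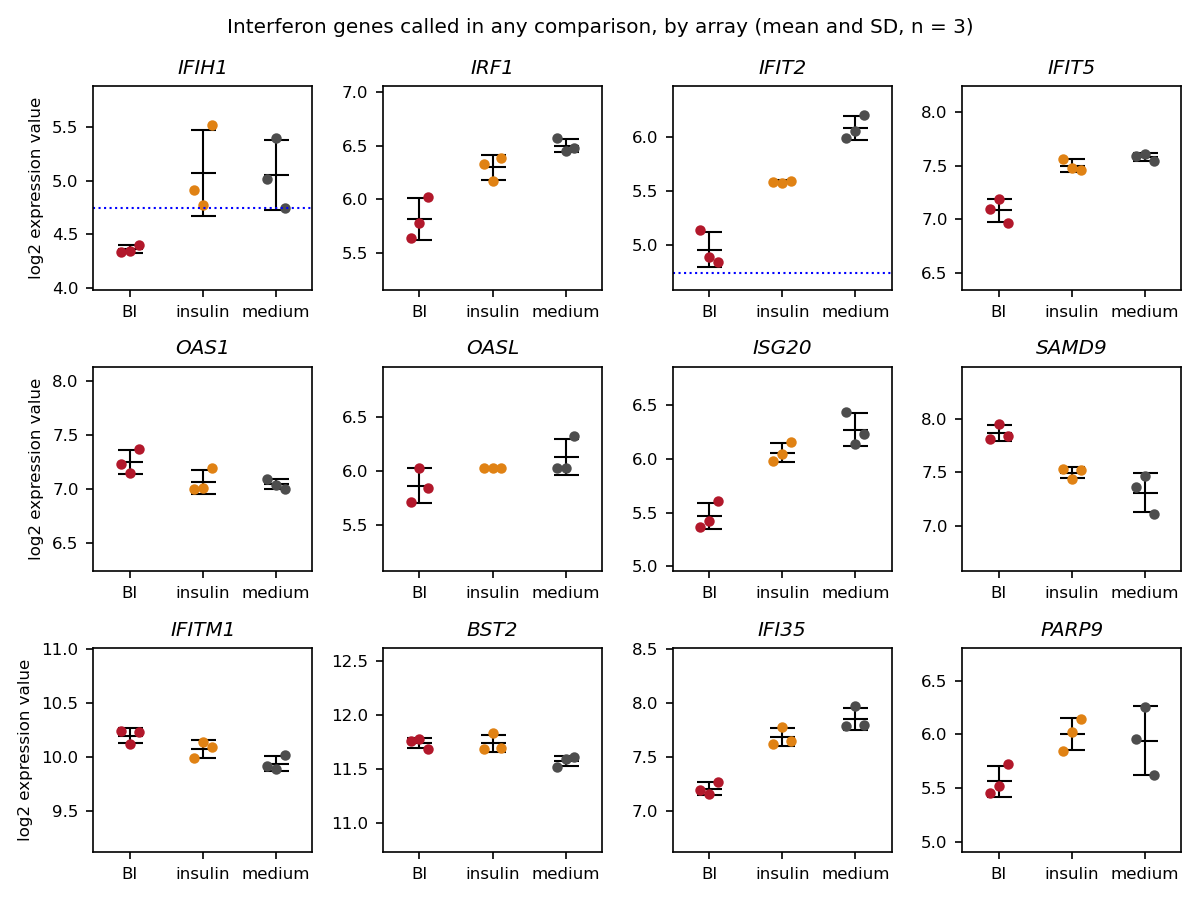
Log2 expression value (y axis) of the 12 interferon genes called in any comparison, by group (x axis: BI, insulin, medium). Points are single arrays, long ticks the group mean and short ticks the SD (n = 3), and the dotted line is the brightness filter at 4.74. IFIT2 is lowest in BI and highest in medium with no overlap of the groups, IFIH1 in BI lies below the filter, and SAMD9 in BI lies above both other groups. With spike-in centring the higher calls in BI against medium are lost for SAMD9, OAS1 and IFITM1, the last 2 with a change of sign, and BST2 is called lower.

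The RNA sensors were represented by IFIH1 alone, since RIGI and DHX58 (which encodes LGP2, a modulator of both sensors) lay below the filter. IFIH1 was at 4.34, 4.34 and 4.40 on BI arrays, 4.91, 4.77 and 5.52 on insulin arrays, and 5.01, 5.39 and 4.74 on medium arrays. All BI values lay below all others and below the filter level of 4.74, and the insulin and medium arrays overlapped. Medium array 3, at 4.7426, was also just under that level (4.7427), and insulin array 2, at 4.77, lay close above it. The measured difference was -0.69 ± 0.17 log2 in BI against medium (SE, adjusted p = 0.0028) and -0.71 ± 0.17 in BI against insulin (adjusted p = 0.0027). Because the BI mean of 4.36 is under the filter, IFIH1 is better given as at least 1.24-fold lower than in medium and at least 1.25-fold lower than in insulin. A dimmer second probe set of IFIH1, with a mean of 2.59, differed by 0.29 and 0.19 in the same comparisons, the opposite direction. RIGI was at 4.46, 4.54 and 4.46 on BI arrays, 4.39, 4.46 and 4.41 on insulin arrays, and 4.54, 4.46 and 4.56 on medium arrays, which overlap.

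Among the transcription factors, IRF1, an early target of interferon gamma, was lower in BI, whereas IRF7 and IRF9 were not called. IRF1 was at 5.64, 5.78 and 6.03 on BI arrays, 6.33, 6.17 and 6.39 on insulin arrays, and 6.57, 6.45 and 6.48 on medium arrays. The groups do not overlap, with BI lowest and medium highest. IRF1 differed by -0.69 ± 0.09 log2 in BI against medium (1.61-fold lower, adjusted p = 9.7e-06) and by -0.48 ± 0.09 in BI against insulin (adjusted p = 0.00039). The other IRF1 probe set above the filter differed by only -0.09 and -0.04 in those comparisons, and the mean of both by -0.39 in BI against medium. IRF9, the DNA-binding partner in the ISRE-bound complex, differed by -0.16 in BI against medium (adjusted p = 0.089, and 0.020 without BI array 1). Its 3 dimmer probe sets above the filter differed by -0.27, -0.17 and -0.33, and their joint mean with the first passed the threshold (-0.23, adjusted p = 0.0030). In BI against insulin IRF9 differed by -0.10 (adjusted p = 0.31), whereas the mean of its probe sets differed by -0.27 (adjusted p = 0.0010) and the most variable one by -0.58 (adjusted p = 0.0015). IRF7, which amplifies interferon production, differed by -0.07 in BI against medium (adjusted p = 0.49) and by -0.21 in BI against insulin (adjusted p = 0.054, and under 0.05 without insulin array 3, medium array 1 or medium array 3). Against insulin IRF7 was also called lower with the 6 arrays compared (adjusted p = 0.030), median centring (0.035) and the dimmest 60 percent left out (0.047). The same held with the mean of probe sets (0.042), array weights (0.047) and spike-in centring (2.9e-06). STAT2 was not analysed here.

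The IFIT proteins bind foreign RNA and hold back its translation, and 2 of the 4 members, IFIT2 and IFIT5, fell in BI against medium, where 25.2% of all tested genes were lower. IFIT2 was at 5.14, 4.89 and 4.84 on BI arrays, 5.59, 5.57 and 5.60 on insulin arrays, and 5.998, 6.06 and 6.21 on medium arrays. It showed the largest difference of the tested members against medium, and its 3 groups are fully separated. The difference was -1.13 ± 0.09 log2 in BI against medium (2.19-fold lower, adjusted p = 2.3e-08), -0.63 ± 0.09 in BI against insulin (1.55-fold lower, adjusted p = 2.4e-05) and -0.50 ± 0.09 in insulin against medium (1.42-fold lower, adjusted p = 0.0084). A second IFIT2 probe set, with a mean of 3.61 and so below the filter, differed by 0.01, -0.05 and 0.06 in the same comparisons.

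IFIT5, whose start carries the 3 ISRE matches printed above, was at 7.10, 7.19 and 6.97 on BI arrays, 7.56, 7.48 and 7.46 on insulin arrays, and 7.59, 7.61 and 7.54 on medium arrays. All BI arrays lay below all others, and insulin and medium overlapped. IFIT5 differed by -0.50 ± 0.06 log2 in BI against medium (1.41-fold lower, adjusted p = 4.6e-06) and by -0.42 ± 0.06 in BI against insulin (adjusted p = 3.8e-05), and its second probe set by -0.44 and -0.37. IFIT1, which lies next to IFIT5 on chromosome 10, differed by -0.14 in BI against medium (95% interval -0.28 to 0.01, adjusted p = 0.10). IFIT3, the neighbour of IFIT2, differed by -0.17 (-0.37 to 0.04, adjusted p = 0.17).

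The oligoadenylate synthetases make the second messenger that activates RNase L, and the family held differences of both signs in BI against medium, although with spike-in centring OAS1 had the opposite sign and was not called (adjusted p = 0.10). OAS1 was at 7.23, 7.14 and 7.37 on BI arrays, 6.996, 7.01 and 7.20 on insulin arrays, and 7.09, 7.04 and 6.999 on medium arrays. BI arrays lay above all medium arrays but overlapped with insulin. OAS1 differed by 0.20 ± 0.07 log2 in BI against medium (adjusted p = 0.024) and by 0.18 ± 0.07 in BI against insulin (adjusted p = 0.049), and its 3 other probe sets above the filter by 0.20, 0.19 and 0.30 against medium. The first call was lost without BI array 3, medium array 2 or medium array 3 (highest adjusted p = 0.13), the second without BI array 1 or 3, insulin array 1 or 2, or medium array 1 or 2 (highest adjusted p = 0.22), and with spike-in centring both were at -0.20 (adjusted p = 0.10 and 0.089). Against insulin the 3 other OAS1 probe sets differed by 0.09, 0.01 and 0.24. The mean of the OAS1 probe sets was not called there (0.13, adjusted p = 0.067).

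OASL, which lacks the synthetase activity and enhances RIG-I signalling, was at 5.71, 6.03 and 5.85 on BI arrays, at 6.03 on every insulin array, and at 6.03, 6.03 and 6.32 on medium arrays. The deposited value was identical on 5 of the 9 arrays, and the BI and medium groups overlap there. The difference of -0.27 ± 0.09 log2 in BI against medium (adjusted p = 0.026) was lost without BI array 1, BI array 3 or medium array 3 (adjusted p of 0.13, 0.065 and 0.13). OAS2 differed by 0.13 (-0.05 to 0.30, adjusted p = 0.22). OAS3 lay below the filter, at 4.61, 4.53 and 4.45 on BI arrays, 4.13, 4.40 and 4.40 on insulin arrays, and 4.17, 4.06 and 4.46 on medium arrays. In a fit without the filter OAS3 passed in BI against medium (0.30, adjusted p = 0.043), alone among the 8 dim members in any comparison.

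Among the other antiviral effectors, ISG20 fell and SAMD9 rose in BI. ISG20, an exonuclease that degrades single-stranded RNA, was at 5.37, 5.42 and 5.61 on BI arrays, 5.98, 6.05 and 6.15 on insulin arrays, and 6.44, 6.14 and 6.23 on medium arrays. Every BI array lay below every other array, and insulin and medium overlapped slightly. ISG20 differed by -0.80 ± 0.09 log2 in BI against medium (1.74-fold lower, adjusted p = 1.4e-06) and by -0.59 ± 0.09 in BI against insulin (1.51-fold lower, adjusted p = 4.8e-05). SAMD9, a factor that restricts poxviruses and slows cell growth, was at 7.81, 7.95 and 7.84 on BI arrays, 7.53, 7.44 and 7.52 on insulin arrays, and 7.36, 7.46 and 7.11 on medium arrays. BI arrays were the highest without overlap. SAMD9 differed by 0.55 ± 0.08 in BI against medium (1.47-fold higher, adjusted p = 1.2e-05) and by 0.37 ± 0.08 in BI against insulin (adjusted p = 0.00072). With spike-in centring SAMD9 was at 0.15 (adjusted p = 0.20) and -0.01 (adjusted p = 0.91). CMPK2, a mitochondrial nucleotide kinase, differed by -0.06 against medium (-0.28 to 0.17). Its neighbour RSAD2 (viperin) and the dynamin-like GTPases MX1 and MX2 lay below the filter.

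The membrane proteins of the list were slightly higher or not called in BI against medium, and with spike-in centring none was higher. IFITM1, which hinders the entry of enveloped viruses, was at 10.24, 10.12 and 10.24 on BI arrays, 9.99, 10.14 and 10.10 on insulin arrays, and 9.91, 9.88 and 10.02 on medium arrays. BI lay above medium without overlap and overlapped with insulin. IFITM1 differed by 0.26 ± 0.05 log2 in BI against medium (adjusted p = 0.00028) and by 0.12 ± 0.05 in BI against insulin (adjusted p = 0.049), and that last call was lost without BI array 1 or 3, insulin array 1 or 3, or medium array 1 or 2 (highest adjusted p = 0.23). With spike-in centring the differences were -0.14 (adjusted p = 0.17) and -0.26 (adjusted p = 0.013). IFITM2 and IFITM3, beside IFITM1 on chromosome 11 and close to it in sequence so that probes may read several of them, differed by -0.04 (-0.10 to 0.02) and -0.08 (-0.15 to -0.00) in BI against medium and were not called. With spike-in centring both were called lower, at -0.44 and -0.48 (adjusted p = 1.1e-05 and 2.2e-06). IFITM3 was also called lower with quantile normalization (-0.09, adjusted p = 0.039) and with median centring (-0.10, adjusted p = 0.028). BST2 (tetherin), which holds budding virions at the cell surface, was at 11.76, 11.78 and 11.68 on BI arrays, 11.69, 11.83 and 11.70 on insulin arrays, and 11.52, 11.59 and 11.61 on medium arrays. Both insulin preparations lay above medium and overlapped each other. BST2 differed by 0.17 ± 0.04 in BI against medium (adjusted p = 0.0022), turning to -0.24 with spike-in centring, and by 0.00 in BI against insulin (95% interval -0.08 to 0.09).

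Of the IFI genes, IFI35, an interferon-induced leucine zipper protein, was lower in BI. IFI35 was at 7.19, 7.15 and 7.27 on BI arrays, 7.62, 7.77 and 7.65 on insulin arrays, and 7.79, 7.97 and 7.80 on medium arrays. The groups are separated, with BI lowest and the step between insulin and medium small. IFI35 differed by -0.65 ± 0.06 log2 in BI against medium (1.57-fold lower, adjusted p = 2.9e-07) and by -0.48 ± 0.06 in BI against insulin (adjusted p = 1.2e-05), and its second probe set by -0.50 and -0.39. IFI6 and IFI27, small membrane proteins, differed by -0.11 and -0.02 against medium and were not called, and IFI44 and IFI44L lay below the filter.

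PARP9, a macrodomain protein that works with the ubiquitin ligase DTX3L encoded beside it on chromosome 3, was at 5.45, 5.52 and 5.73 on BI arrays, 5.85, 6.02 and 6.15 on insulin arrays, and 5.95, 6.25 and 5.62 on medium arrays. BI lay below insulin without overlap, but medium array 3 fell among the BI values. PARP9 differed by -0.38 ± 0.13 log2 in BI against medium (adjusted p = 0.022) and by -0.44 ± 0.13 in BI against insulin (adjusted p = 0.010), and another probe set above the filter by -0.04 and -0.06. The call against medium was lost without BI array 1, BI array 2 or medium array 2 (adjusted p of 0.094, 0.072 and 0.15, the last at -0.22), and that against insulin without BI array 1 (adjusted p = 0.053). DTX3L, named after its values were seen, differed by -0.31 and -0.24 (adjusted p = 0.00056 and 0.0041). PARP14, a mono-ADP-ribosyltransferase, differed by -0.09 against medium and was not called. Neither was the ISG15 system: ISG15, the ubiquitin-like modifier, differed by 0.06 (-0.09 to 0.21) and its ligase HERC5 by 0.00 (-0.10 to 0.11). USP18, the enzyme that removes ISG15, was not analysed because its probe set is shared with other genes.

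**Figure D2:**
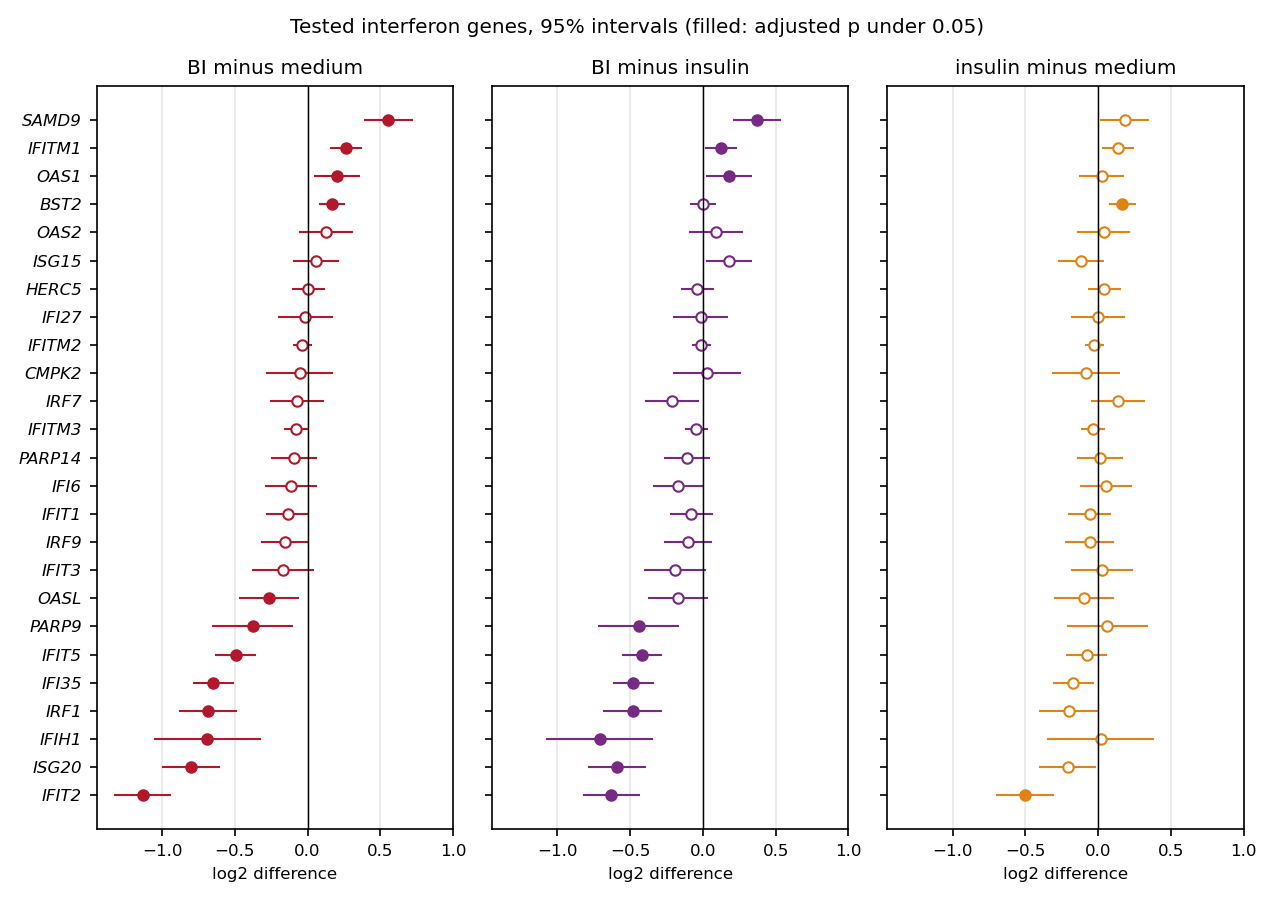
Log2 difference with its 95% interval (x axis) for the 25 tested interferon genes (y axis, ordered by BI minus medium), for BI minus medium, BI minus insulin and insulin minus medium; filled points passed an adjusted p of 0.05. IFIT2 is lowest at -1.13 and SAMD9 highest at 0.55 against medium, and 2 points are filled in insulin minus medium. With spike-in centring none of the higher calls in the BI panels is kept: BST2 against medium and IFITM1 against insulin are called lower, SAMD9, OAS1 and IFITM1 against medium are not called, and neither are OAS1 and SAMD9 against insulin.

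The comparison of BI with insulin, which holds the insulin dose equal, called 10 of the 25 members (40%), 7 lower and 3 higher, against 44.4% of all tested genes (23.3% lower and 21.1% higher). The 7 lower genes were IFIH1, IRF1, IFIT2, IFIT5, ISG20, IFI35 and PARP9, and the 3 higher genes were OAS1, SAMD9 and IFITM1, all also called in the same direction against medium. As both comparisons share the BI arrays, that overlap is not independent. By size, 3 members (IFIH1, IFIT2 and ISG20) were lower by at least 1.5-fold as measured, against 3.59% of all genes, and 0 were higher by that much, against 1.6% (5.2% in either direction). Of these, IFIH1 is known only as a bound of at least 1.25-fold lower, and it passed the filter only through insulin and medium arrays. The median difference was -0.10 log2, against 0.02 for all genes, and the groups did not overlap for 10 members, against 52.7% of all genes, while 12 members had an unadjusted p under 0.05, against 50.5%. The split was 1 higher and 8 lower with median centring, against 2290 higher and 3030 lower among all genes, and 0 higher and 22 lower with spike-in centring, against 165 and 9446. ISG15 was just short of the threshold (0.18 log2, adjusted p = 0.051, and under 0.05 without BI array 2, insulin array 2 or 3, or medium array 3), with all BI arrays above all insulin arrays. It was also called higher with quantile normalization (adjusted p = 0.029), array weights (0.024), the mean of probe sets (0.041) and the dimmest 60 percent left out (0.040).

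In insulin against medium, IFIT2 was lower and BST2 higher. Of the 25 members 2 were called (8%), 1 lower and 1 higher, against 2.45% of all tested genes (1.2% lower and 1.25% higher), and 0 by at least 1.5-fold, against 0.0163%. IFIT2 was lower in insulin (-0.50 log2) and remained past the threshold with any 1 array left out (highest adjusted p = 0.044), but not with spike-in centring (-0.52, adjusted p = 0.057). BST2 was higher by 0.17 ± 0.04 (adjusted p = 0.040), a call lost when any single array except BI array 3 was left out (highest adjusted p = 0.12). The 23 members not called ranged from -0.21 (ISG20, adjusted p = 0.26) to 0.18 (SAMD9, adjusted p = 0.25), and 7 members had an unadjusted p under 0.05, against 15.8% of all genes. Groups did not overlap for 4 members (IFIT2, IRF1, IFI35 and BST2), against 18.3%. Actin, read at both ends of its transcript to follow RNA integrity, had a 3′ minus 5′ difference of 3.11 to 3.27 on insulin arrays and 2.96 to 3.08 on medium arrays. For GAPDH, read in the same way, these groups overlapped, at 0.16 to 0.17 on insulin and 0.13 to 0.20 on medium arrays. On BI arrays actin was at 2.95 to 3.14, overlapping both other groups. GAPDH on BI arrays was at 0.18 to 0.21, above all insulin arrays and overlapping medium. The part of RNA integrity in the calls of any comparison was not tested. The comparisons with medium share the medium arrays: IFIT2 was at -1.13 in BI and -0.50 in insulin against them, ISG20 at -0.80 and -0.21, IFIH1 at -0.69 and 0.02, IRF1 at -0.69 and -0.20, IFI35 at -0.65 and -0.17, IFIT5 at -0.50 and -0.08, PARP9 at -0.38 and 0.06, and OASL at -0.27 and -0.10. Of these 8 genes called lower in BI, IFIT2 alone was called in insulin.

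**Figure D3:**
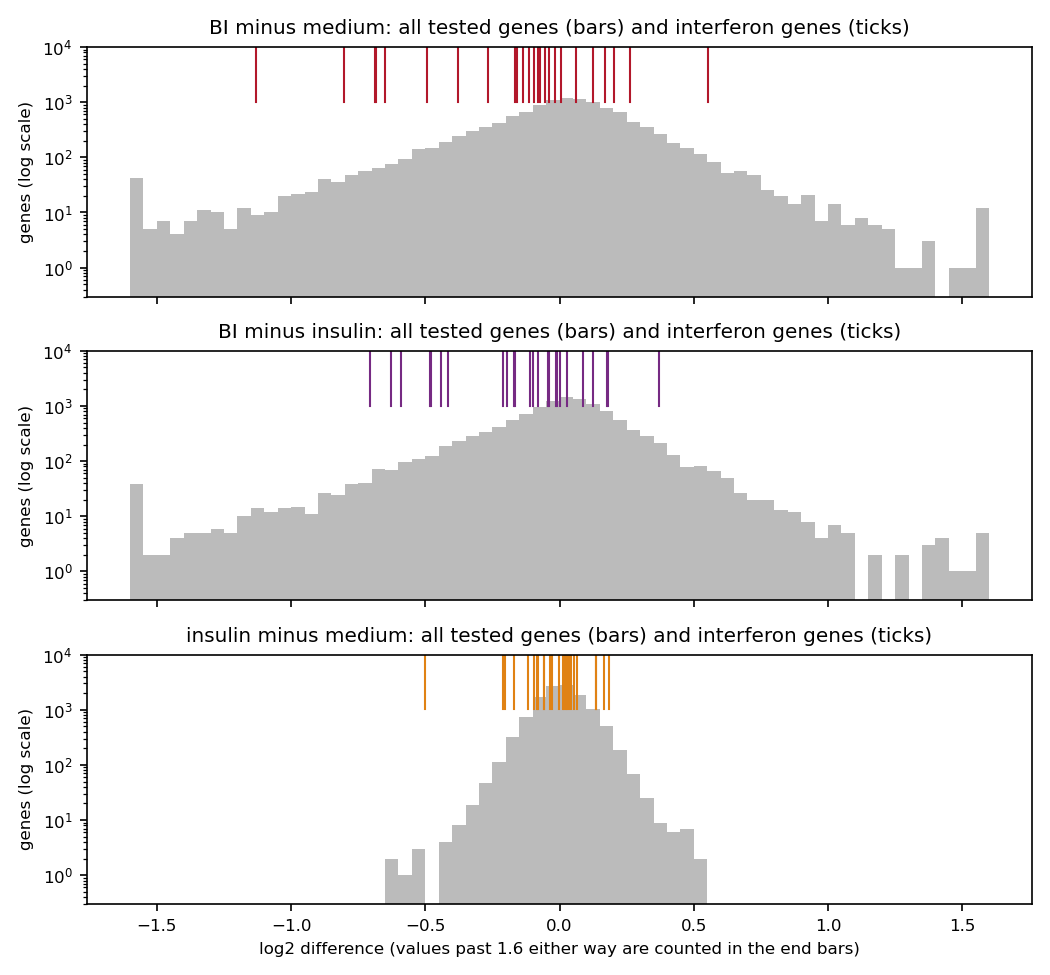
Number of genes (y axis, log scale) by log2 difference (x axis) for all 12240 tested genes (bars) and the 25 tested interferon genes (coloured ticks), in BI minus medium, BI minus insulin and insulin minus medium; the end bars hold values past 1.6 either way. The interferon genes reach -1.13 at the low end and 0.55 at the high end against medium, inside the range of all genes, and lie close to 0 in insulin minus medium apart from IFIT2. With spike-in centring the bars and ticks of both BI panels move down by about 0.40 and 0.39.

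The rest of the pathway was read from a list of 100 interferon and RNA-sensing genes outside the 35, of which 68 were tested, 26 lay below the filter and 6 were not analysed here. In BI against medium 15 were higher and 18 lower (48.5% called, against 50.9% of all genes), in BI against insulin 17 were higher and 15 lower (47.1%, against 44.4%), and in insulin against medium 0 were higher and 1 lower (1.47%, against 2.45%). These splits hold on the deposited scale only. With spike-in centring 2 were higher and 54 lower in BI against medium, against 273 and 9120 among all genes. In BI against insulin 1 was then higher and 52 lower, against 165 and 9446. Of the 6 interferon genes analysed, IFNB1, IFNA2, IFNK, IFNG and IFNL1 lay below the filter. IFNE, an epithelial type I interferon named after its values were seen, was tested and was higher in BI on the deposited scale, by 0.41 log2 against medium (adjusted p = 0.0027) and 0.29 against insulin (adjusted p = 0.027). IFNB1 was at 3.08, 3.20 and 3.20 on BI arrays, 3.08, 3.20 and 3.35 on insulin arrays, and 3.26, 3.26 and 3.20 on medium arrays.

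Among receptors and kinases, 2 genes were higher and 3 lower in BI against medium, of 9 tested, near the 50.9% called among all genes. IFNGR1, the ligand-binding chain of the interferon gamma receptor, was at 8.93, 9.09 and 9.04 on BI arrays, 9.81, 9.90 and 9.81 on insulin arrays, and 9.85, 9.81 and 9.73 on medium arrays, with BI well below both. It differed by -0.77 ± 0.05 log2 in BI against medium (1.71-fold lower, adjusted p = 1.3e-09) and by -0.82 ± 0.05 in BI against insulin (adjusted p = 9.4e-10). Its partner chain IFNGR2, named after its values were seen, was higher on the deposited scale, at 0.20 and 0.13 (adjusted p = 0.0016 and 0.025). IL10RB, a receptor chain used by interferon lambda, was lower by a similar amount, at -0.72 and -0.67 (adjusted p = 1.6e-07 and 5.1e-07). IFNAR1 of the type I receptor was at 0.24 and 0.18 (adjusted p = 0.0019 and 0.016, the second 0.075 without BI array 3), at -0.17 and -0.21 with spike-in centring (adjusted p = 0.14 and 0.063), and its partner IFNAR2 at -0.01 and -0.12, not called. JAK1 was lower than in medium both in BI (-0.21, adjusted p = 0.00011) and in insulin (-0.17, adjusted p = 0.027, lost without insulin array 1 or 3 or medium array 1 or 2), and TYK2 was not called, at 0.04 in BI against medium. The JAK1 call in insulin was kept in 13 of 23 alternatives. It was also lost with the mean of its probe sets (adjusted p = 0.079) or the most variable one (0.076). The same held with the 6 arrays compared (0.052), without the intensity trend (0.13) and with spike-in centring.

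Between the sensors and the interferon genes, TBK1, the kinase that phosphorylates IRF3, was at 9.77, 9.76 and 9.85 on BI arrays, 9.35, 9.37 and 9.49 on insulin arrays, and 9.23, 9.27 and 9.27 on medium arrays. TBK1 differed by 0.53 ± 0.04 log2 in BI against medium (adjusted p = 4.1e-08) and by 0.39 ± 0.04 in BI against insulin (adjusted p = 2.3e-06), and TRAF3, an adaptor downstream of MAVS, by 0.63 and 0.56 (adjusted p = 1.9e-08 and 1.1e-07). Their rise depends on the scaling: with spike-in centring TBK1 was at 0.13 and 0.00 and TRAF3 at 0.22 and 0.17, none past the threshold. MAVS differed by 0.13 in BI against medium (adjusted p = 0.062) and by 0.20 in BI against insulin (adjusted p = 0.0070, but 0.11 for the mean of its probe sets, and at -0.18 with an adjusted p of 0.12 with spike-in centring), and IRF3 by -0.09 and 0.00. The ubiquitin ligases that act with RIG-I had differences of opposite sign on the deposited scale: TRIM25 was lower, at -0.53 and -0.38 (adjusted p = 2.2e-07 and 1.2e-05), and RNF135, named after its values were seen, was at 0.47 and 0.31 (adjusted p = 6.7e-06 and 0.00058). Over 23 alternatives TRIM25 stayed called lower, but its differences were as small as -0.24 and -0.26 (highest adjusted p = 0.028 and 0.023).

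The largest change in the pathway list was in ZC3HAV1, the zinc-finger antiviral protein that binds CpG-rich viral RNA. ZC3HAV1 was at 9.41, 9.50 and 9.46 on BI arrays, 7.99, 8.02 and 7.94 on insulin arrays, and 7.87, 7.91 and 7.92 on medium arrays. BI stood apart from both other groups, by 1.55 ± 0.05 log2 against medium (2.93-fold higher, adjusted p = 1.2e-13) and 1.47 ± 0.05 against insulin (2.77-fold higher, adjusted p = 3e-13), and with spike-in centring still by 1.15 and 1.09. TRIM5, a factor that binds retroviral capsids, averaged 5.18 in BI but 4.70 in insulin and 4.44 in medium, both under the filter. Its mean over the 9 arrays, 4.77, passed the filter only through the BI arrays, where it is high. On the deposited scale TRIM5 is given as at least 1.36-fold higher in BI than in either. The measured differences were 0.48 log2 against insulin and 0.74 against medium (adjusted p = 0.00037 and 3.9e-06). With spike-in centring TRIM5 was at 0.10 log2 against insulin (adjusted p = 0.50) and at 0.34 against medium (adjusted p = 0.017), so the bound does not hold there. NT5C3A, an interferon-induced nucleotidase, was lower in BI, at -0.56 and -0.46 (adjusted p = 1.4e-08 and 2.5e-07).

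**Figure D4:**
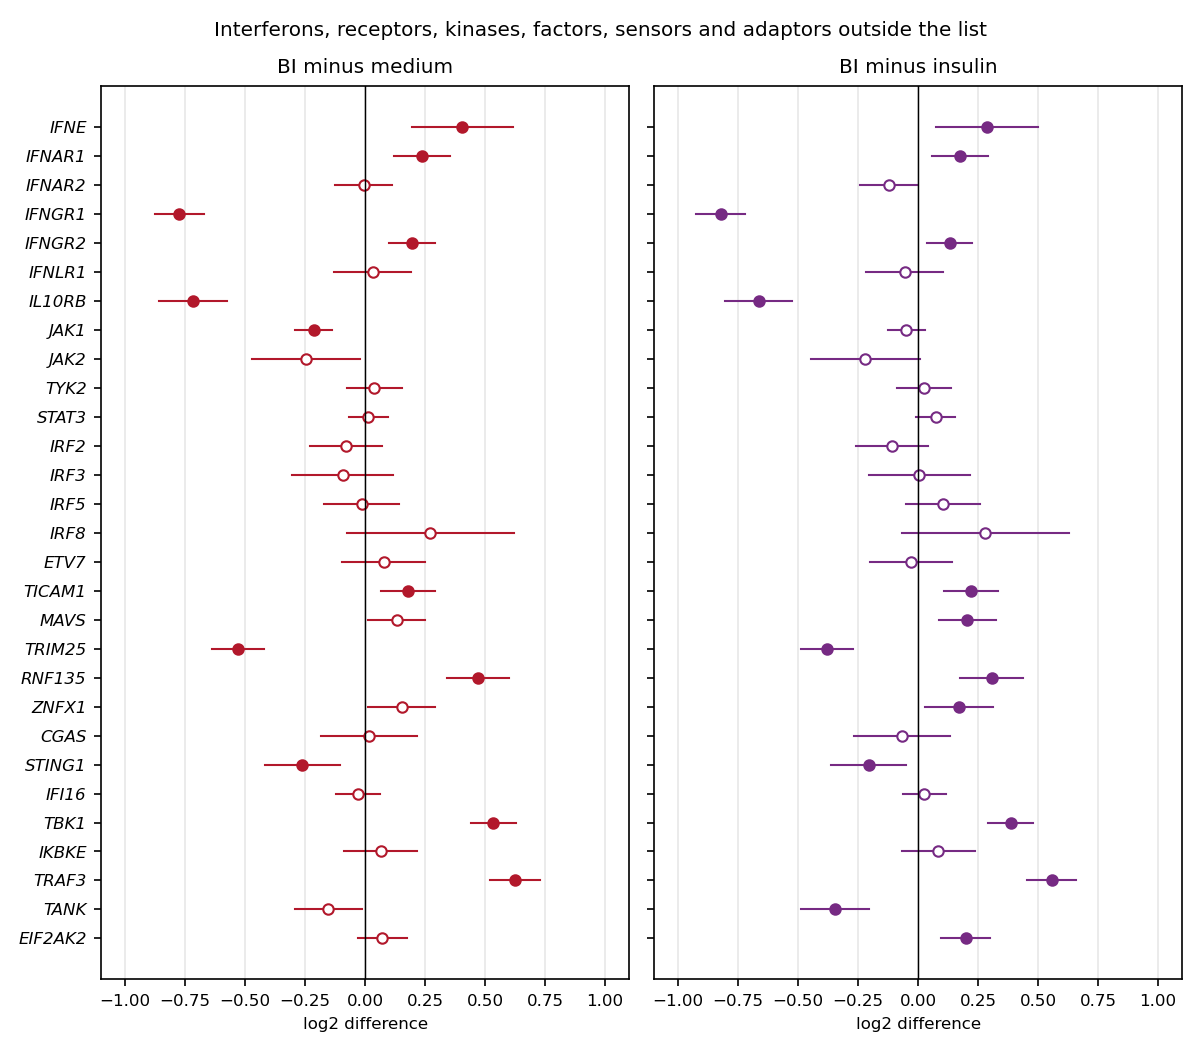
Log2 difference with its 95% interval (x axis) for the tested interferons, receptors, kinases, transcription factors, sensors and adaptors outside the 35 (y axis), for BI minus medium and BI minus insulin; filled points passed an adjusted p of 0.05. IFNGR1 and IL10RB lie lowest, and TRAF3 and TBK1 lie among the highest. With spike-in centring IFNAR1 in both comparisons and MAVS in BI minus insulin change sign and are not called, and TBK1 and TRAF3 are not called in either.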

How the data were processed

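The unit of the deposited table was read from the range and near-equal distributions of its columns as log2 expression. The authors' summarisation and normalization are not given in the sources used here. Per the labels' protocols, biotin-labelled cRNA was made from total RNA with a 3′ in vitro transcription kit. Groups came from the sample titles. Of 49395 probe sets, 44988 had 1 gene symbol, 1832 several, 2473 none and 102 were controls. Symbols were updated through the RefSeq table of GRCh38.p14. Probe sets in the lowest 40 percent by mean were dropped, and the brightest remaining single-gene probe set stood for its gene. One model over all 9 arrays and 3 groups (limma 3.58.1, R 4.3.3, intensity trend, 6 residual degrees of freedom) gave all 3 comparisons, with Benjamini-Hochberg adjustment over 12240 genes. Bounds of fold use the filter level. The number of arrays limits the precision.

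The members and lists were chosen with earlier results of these data known. Members called in any comparison are given by array. Outside the 35, up to 8 called genes with the largest change per comparison and fixed signalling genes are named. The scripts were tested on simulated data. Alternatives covered normalization, an offset, filters, the arrays fitted together, a replicate block, probe set choice, the variance model, array weights, the threshold and leaving out each array. Spike-in centring was added after the data were seen. Figures used matplotlib 3.10.9.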

Additional observations from a re-analysis of the deposited data

How the results depend on the processing

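Of 45 gene results tested under up to 23 alternatives, 24 kept their direction and call in each. The count of interferon genes called in insulin against medium, 2 in all, was 1 with the 6 arrays compared, without the brightness filter, with the dimmest 60 percent left out, without probe sets marked as cross-hybridizing, without the intensity trend or at an adjusted p of 0.01, 0 with spike-in centring, and 1 to 2 with arrays left out. In BI against medium it was 6 of 13 tested with the dimmest 60 percent left out (5641 of 9073 genes in all) and 22 with spike-in centring, against 12, and in BI against insulin 22 with spike-in centring, against 10. Over all genes, the 300 called in insulin against medium became 152 with 6 arrays, 177 with each gene's most variable probe set, 197 with median centring, 180 without the cross-hybridizing ones, 37 without the trend, 604 with array weights, 66 at 0.01, 7 with spike-in centring and 57 to 424 with arrays left out (57, 62, 145 and 189 without insulin 3, medium 2, insulin 1 and medium 1), and spike-in centring called 9393 genes in BI against medium and 9611 in BI against insulin. The causes of these shifts were not tested. Spike-in centring changed the sign of 10 results, of which BST2 against medium and IFITM1 against insulin were then called lower: in BI against medium OAS1 to -0.20, IFITM1 to -0.14, BST2 to -0.24 and IFNAR1 to -0.17, and in BI against insulin OAS1 to -0.20, SAMD9 to -0.014, IFITM1 to -0.26, IFNAR1 to -0.21, MAVS to -0.18 and TBK1 to -0.000378.

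Same-numbered arrays of different groups did not deviate together (r of -0.23 to 0.17 over 9 pairs, against -0.36 to 0.34 over 18 pairs of other numbers), so no pairing by number was assumed. With the replicate number as a block, 12, 10 and 2 interferon genes were called in BI against medium, BI against insulin and insulin against medium, and 6082, 5302 and 226 genes in all.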

Other observations

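The deposited values repeat exactly across arrays more often than OASL alone shows. Of 49293 probe sets, 11786 (23.9%) carry 1 identical value on at least 3 of the 9 arrays, and so do 19 of the 79 single-gene probe sets of the interferon members (24.1%). All 3 arrays of a group carry the same value in 1139 probe sets, 4 of them of the interferon members. The SD of such a group is 0, and the fit takes its spread from all groups and from genes of like brightness.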
